A study of Danio rerio with 6 samples.

Results

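The genes described here encode the myosins, troponins, tropomyosins and sarcomeric actins of muscle. They were taken by symbol from the gene table, as every row whose name began with a stem of these families (*myh*, *myl*, *mylpf*, *mylz*, *tnnc*, *tnni*, *tnnt*, *tpm*, *acta1* or *actc1*, with the digits or letters that follow). The rule found 54 of 32520 genes, and all 54 passed the filter on low counts that left 22762 genes for the tests. They comprised 21 troponin genes, 14 myosin light chain genes, 9 myosin heavy chain genes, 5 tropomyosin genes, 4 sarcomeric actin genes and *tnni3k*, which meets the rule by its name but encodes a protein kinase. By the muscle type that their names or zebrafish literature give, 16 were placed in a fast skeletal class, 14 in a cardiac class, 9 in a slow skeletal or slow-tonic class, 6 among genes shared by several muscle types and 8 in a smooth muscle or non-muscle class. The classes of *myl10*, *myl13*, *tnnt2d*, *tnnt2e*, *tnni1c*, *tnni4a* and *tnni4b.2* rest on name or homology only and are uncertain.

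RNA was measured by sequencing in 6 libraries from zebrafish embryos at 3 days post fertilization (dpf), 3 from homozygous *dgat2* mutants (*dgat2sa13945/sa13945*) and 3 from wild-type (WT) embryos of the same clutches. Heterozygous parents were crossed, and offspring were sorted by normal or opaque yolk and then genotyped from the cut head and tail. Only the mid-section, the yolk with the trunk muscle above it, was kept for RNA. Each library came from 1 pool of 6 such mid-sections, and clutches 2, 3 and 4 each gave 1 mutant and 1 WT pool. Dgat2 makes triacylglycerol, which the yolk syncytial layer (YSL) packs into lipoproteins, and the comparison of the contractile genes asks whether muscle transcripts in these mid-sections differed between the genotypes. The paper reports less musculature and a larger yolk sac area in mutants of this allele than in siblings at this age. It no longer saw these differences at a later larval age. RNA levels scaled within each library do not measure the area or amount of muscle, so the reported reduction was not tested here.

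In a sarcomere, myosin heavy chains form the thick filament and carry the motor, while essential and regulatory light chains wrap the neck of each heavy chain. The thin filament is made of actin with tropomyosin along it and with the troponin complex, in which troponin C binds calcium, troponin I inhibits and troponin T anchors the complex to tropomyosin. Fast, slow and cardiac muscle use different genes for most of these proteins, and zebrafish carry several copies of many. The trunk of a zebrafish embryo is mostly fast muscle with a superficial layer of slow fibres, and the heart lies in front of the yolk.

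The *sa13945* allele introduces an early stop codon. The *dgat2* transcript had 21.7, 9.78 and 20.6 CPM in the mutant pools of clutches 2, 3 and 4 and 28.3, 15.7 and 4.41 CPM in the WT pools, which overlapped (log2 fold change 0.10, SE 0.56), so its level neither separates the groups nor checks the labels. The libraries held 45958694 to 59166585 estimated counts, with every mutant library deeper than every WT library. Differences between genotypes are given below on counts scaled to 1000000 per library with TMM factors (CPM), where the median log2 ratio of all genes within a clutch was 0.00, 0.00 and -0.01 in clutches 2, 3 and 4. Levels of different genes are compared on transcripts per 1000000 (TPM), which is also scaled for transcript length. On TPM the median ratio of all genes shifted by -0.18, -0.09 and 0.20 in the 3 clutches, so TPM differences between genotypes are read against that shift. Markers of fast muscle, slow muscle, YSL, epidermis, blood and heart were all present in every library. In bulk samples fewer cells of a type and less RNA per cell cannot be told apart.

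Contractile genes were among the most abundant transcripts of the mid-section. Of the 20 genes with the highest mean TPM in the whole table, 5 were members, and 9 were among the highest 50. The essential light chain gene *mylz3* stood first among them with 14272, 13053 and 15572 TPM in the mutant pools of clutches 2, 3 and 4 and 16500.4, 13046 and 14291 TPM in the WT pools, and its 2 groups overlapped. It was followed by the actin gene *actc1b* with a mean of 12514 TPM over the 6 libraries. The fast regulatory light chain genes *mylpfa* and *mylpfb* had means of 11495 and 7647 TPM. The ranges of *mylz3*, *mylpfa*, *mylpfb* and *myl1* over the 6 libraries lay apart from one another in this order.

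Among the heavy chain genes that meet the name rule *myhz1.1* led with a mean of 4129 TPM, before *myhz1.2* with 1858 TPM and *myhz2* with 182 TPM, in that order in all 6 libraries. The next of these was the non-muscle gene *myh9a* at 37.2 TPM, which lay above the ventricular heavy chain gene *myh7* at 19.3 TPM in every library. Of sarcomeric heavy chain genes with names outside the rule, the fast gene *myhz1.3* had a mean of 508 TPM and the slow gene *smyhc1* of 171 TPM, both above *myh9a*. Each fast troponin subunit was carried mainly by 1 gene, *tnnt3b* for troponin T with 7275 TPM, *tnni2a.4* for troponin I with 6298 TPM and *tnnc2.2* for troponin C with 4882 TPM. These 3 levels also lay apart in all 6 libraries. Further down the troponin order neighbours mostly overlapped, in 13 of 20 adjacent pairs. The members spanned from 14456 TPM down to 0.901 TPM for the atrial heavy chain gene *myh6* and 0.404 TPM for the kinase gene *tnni3k*, and 27 of the 54 exceeded 100 TPM.

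**Figure D1:**
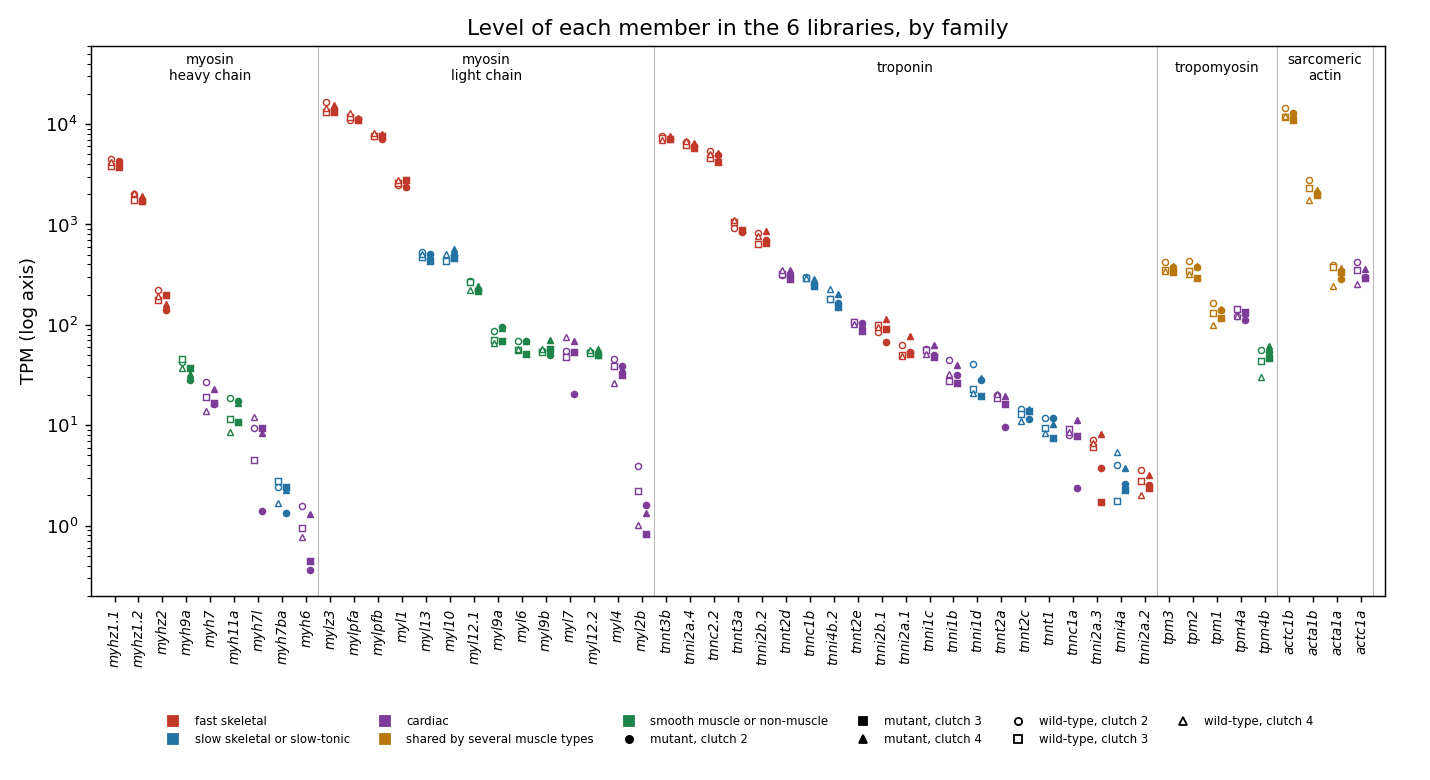
TPM (log axis) of the 53 members other than *tnni3k* in each library, ordered by family and by mean level, with open symbols for WT pools, filled symbols for mutant pools, a symbol shape for each clutch and a colour for each class. Fast skeletal genes sit at the top of the heavy chain, light chain and troponin families. The shared genes *actc1b*, *tpm3* and *tpm2* lead the actins and tropomyosins. In *myl7*, *tnnt2a*, *tnnc1a* and *myh7l* 1 filled circle, the mutant pool of clutch 2, lies below the other libraries.

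The 54 genes together took 7.99%, 7.59% and 8.43% of all TPM in the mutant pools of clutches 2, 3 and 4 and 8.78%, 7.92% and 8.33% in the WT pools. The groups overlapped, and the mean difference of -0.340 percentage points was smaller than the SD of the within-clutch differences, 0.449 (n = 3 clutches). As log2 ratios the share differed by -0.14, -0.06 and 0.02 in clutches 2, 3 and 4, and by 0.05, 0.02 and -0.18 once the shift of all genes was taken off, so its sign in each clutch depends on the scale. Of the estimated counts the members took 11.7%, 11.9% and 11.7% in mutants and 11.9%, 11.6% and 12.7% in WT pools, which also overlapped. Fast skeletal genes made up 74.8% to 78.3% of the members' TPM in every library. The slow class summed to 2.45%, 2.27% and 2.496% of the fast class in the mutant pools. In the WT pools it summed to 2.35%, 2.36% and 2.44%, which overlapped with the mutant values. Both sums hold only genes that meet the name rule, without the slow heavy chain gene *smyhc1* or the fast *myhz1.3*. In the slow sum *myl13* and *myl10*, whose class is uncertain, had the highest means, 492 and 490 TPM. The ratio is therefore not a full measure of slow against fast transcripts. The cardiac class reached 1.66% to 1.88% of the fast class in mutants and 1.65% to 1.89% in WT pools. In this sum *actc1a* and *tnnt2d* had means of 329 and 324 TPM, and *myl7* and *tnnt2a* of 53.8 and 17.5 TPM. The low values of *myl7* and *tnnt2a* in the mutant pool of clutch 2, given below, therefore weigh little in it. On CPM that pool held 91.9% and 101% of the mean of the other pools for *actc1a* and *tnnt2d*, and 29.5% for *myl7*. The cardiac sum is therefore not a measure of how much heart RNA a pool held.

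Proportions between subunits also overlapped between the genotypes. The 4 fast light chain genes summed to 5.65, 6.07 and 5.90 times the 3 fast heavy chain genes in the mutant pools and to 5.60, 6.14 and 5.89 times in the WT pools. The essential to regulatory ratio of the fast light chains ran from 0.852 to 0.930 in mutants and from 0.805 to 1.03 in WT pools. Fast troponin I stood at 0.815 to 0.879 of fast troponin T in mutants and 0.852 to 0.949 in WT pools, and troponin C from *tnnc2.2* at 0.518 to 0.625 and 0.559 to 0.638. All 13 such proportions overlapped between the genotypes. Of them *myl7* over the fast class had 1 library apart, at 0.0339% in the mutant pool of clutch 2 against 0.0792% to 0.116% in the other 5 pools.

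**Figure D2:**
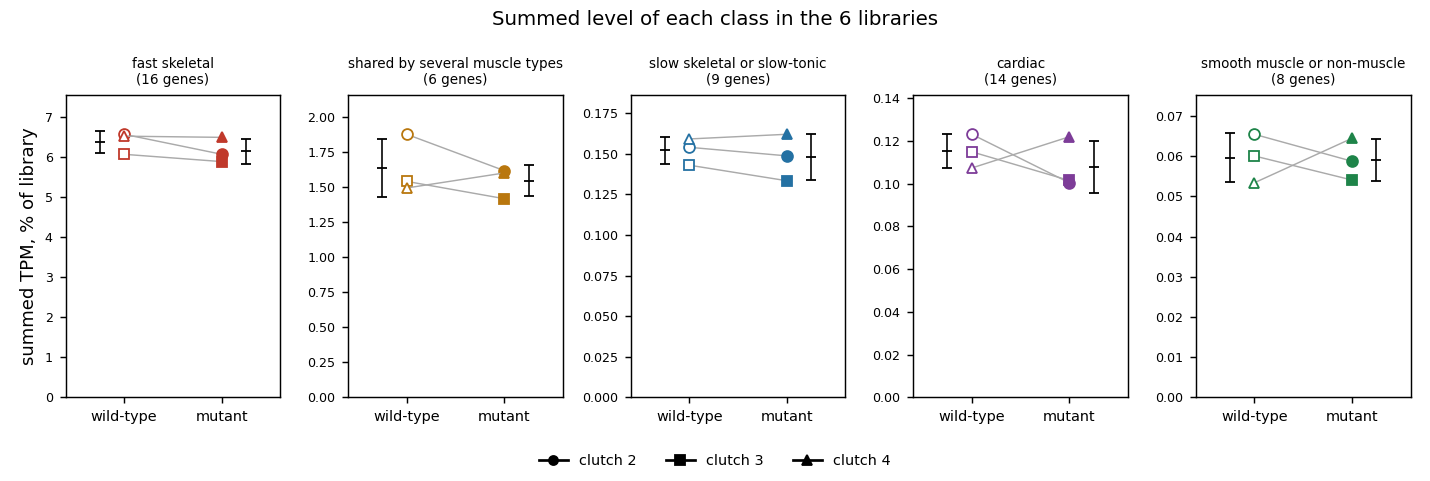
Summed TPM of each class as a percentage of the library in the 3 WT pools (open) and the 3 mutant pools (filled), with lines joining the pools of a clutch and bars giving the mean and SD of each genotype (n = 3). The 2 genotypes overlap in all 5 classes, and fast genes reach 5.88% to 6.56% of a library. The cardiac sum is weighted to its genes of highest level, *actc1a* and *tnnt2d*.

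No member differed between genotypes past the threshold. With edgeR's quasi-likelihood test and Benjamini-Hochberg adjustment over all genes tested, 0 of 54 had an adjusted p under 0.05, against a background of 0.0132% of all genes, and the lowest adjusted p was 0.917. At an unadjusted p under 0.05 the test found 0 members higher, where 3.21% of all genes were, and 1 lower, *myh9a*, where 1.99% of all genes were (5.2% in either direction). With the clutch as a block edgeR again called 0 (background 0.338%), with 0 members higher and 3 lower at an unadjusted p under 0.05 (backgrounds 5.14% and 3.05%, together 8.19%), *myh9a*, *tnnt2a* and *tnni2a.3*. DESeq2 with transcript length offsets called 0 as well, both without the block (background 0.684%) and with it (background 1.46%), and had 2 and 5 members at an unadjusted p under 0.05 (backgrounds 5.04% and 5.61%). The 2 were *myh9a* and *myl2b*, a cardiac light chain gene of low level (mean 1.81 TPM). The log2 fold change of *myl2b* was -0.19 (SE 0.31) in edgeR. With DESeq2 and length offsets it was -0.84 (unadjusted p = 0.0489, adjusted p = 0.864).

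The fitted log2 fold changes of the members, mutant over WT, ran from -0.65 to 0.27 with a median of -0.05, beside a median of -0.01 over all genes tested. Of the 54 estimates 39 were below 0 and 15 above, where 11791 of all 22762 were below. Their standard errors ran from 0.09 to 0.43 with a median of 0.13. For 38 of 54 members the 95% interval lay within 0.5 log2 units on either side of 0, and for 48 within 1 log2 unit. The CPM values of the genotypes did not overlap for 1 member that was higher in mutants (*tpm4b*) and 2 that were lower (*myh9a* and *tnnc1b*), where 5.14% and 4.65% of all genes did the same. In all 3 clutches 4 members were higher in the mutant pool and 7 lower, that is 11 of 54, where 14.6% and 14.3% of all genes were.

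Single libraries moved the count of members lower at an unadjusted p, which stayed at 0 to 2 of 54. It was 0 without the mutant pool of clutch 2 (background 1.53%) and 0 without the WT pool of clutch 3 (1.91%). It was 2 without the mutant pool of clutch 3 (*myh9a* and *myhz2*, background 2.27%) and 2 without that of clutch 4 (*myh6* and *tnni2a.3*, background 1.69%). Without the WT pool of clutch 2 it was 1, the fast troponin T gene *tnnt3a* in place of *myh9a* (background 2.49%), and without that of clutch 4 it was 1, *myh9a* (2.58%). The count of members higher was 1 without the mutant pool of clutch 3 (*myl9a*, background 4.48%), 1 without the WT pool of clutch 2 (*myh11a*, 4.45%) and 1 without that of clutch 4 (*myl10*, 2.73%). It was 0 without the mutant pools of clutches 2 and 4 and the WT pool of clutch 3, where 1.97%, 2.34% and 2.04% of all genes were higher. Across these fits 0 members passed an adjusted p of 0.05.

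**Figure D3:**
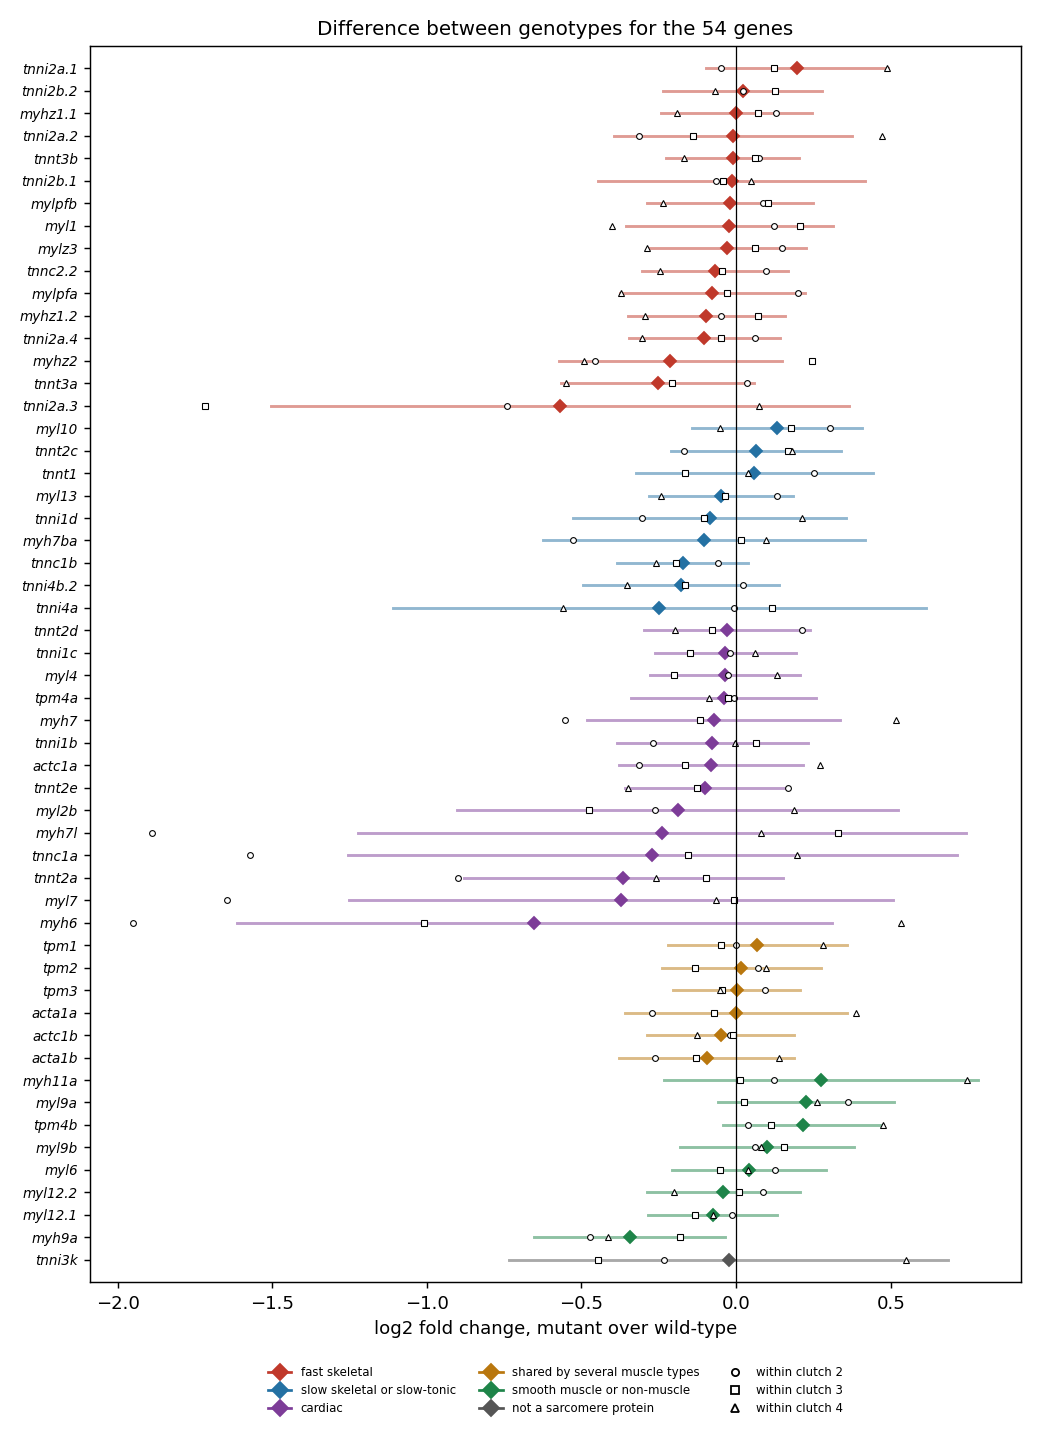
Fitted log2 fold change of each of the 54 genes, mutant over WT (filled diamonds), with its 95% interval (bars), and the log2 ratio within each clutch (open symbols), grouped by class. The shared genes lie closest to 0, the fast and slow genes spread from -0.57 (*tnni2a.3*) to 0.20 (*tnni2a.1*), wide intervals belong to cardiac genes such as *myh6*, *myl7* and *tnnc1a* and to *tnni2a.3* and *tnni4a*, and the open circles of clutch 2 lie far to the left for *myh6*, *myh7l*, *myl7* and *tnnc1a*.

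In the fast skeletal class 13 of 16 estimates were below 0, with a median of -0.02, and 13 of 16 intervals lay within 0.5 log2 units of 0. The heavy chain gene *myhz1.1* had 30116, 27418 and 26661 CPM in the mutant pools of clutches 2, 3 and 4 and 27557, 26111 and 30456 CPM in the WT pools, with the lowest and the highest value both in WT pools. Its log2 fold change was 0.00 (SE 0.11, 95% interval -0.24 to 0.25). For the essential light chain gene *mylz3* the mutant pools gave 10501, 9774 and 9114 CPM and the WT pools 9480.5, 9357 and 11136 CPM. The WT pool of clutch 4 was the highest of the 6, and the log2 fold change was -0.03 (SE 0.11, interval -0.28 to 0.23).

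The regulatory light chain gene *mylpfa* stood at 16487, 16940.4 and 15201 CPM in mutants and 14334, 17286 and 19671 CPM in WT pools, again with both extremes in WT pools. Its partner *mylpfb* had a log2 fold change of -0.02 (SE 0.12). The fast troponin T gene *tnnt3b* had 5340.1, 5377 and 4927 CPM in mutants and 5071, 5153 and 5539 CPM in WT pools, and the log2 fold change was -0.01 (SE 0.09). The mutant pools filled almost the same range as the WT pools. The main troponin I gene *tnni2a.4* differed by -0.10 (SE 0.11) and the troponin C gene *tnnc2.2* by -0.07 (SE 0.10).

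The fast class did not move the same way in every clutch. Its median log2 ratio was 0.05 in clutch 2, 0.06 in clutch 3 and -0.24 in clutch 4. The WT pool of clutch 4 held the highest CPM of all 6 libraries for 10 of 16 fast genes and for 20 of all 54 members. The same share over all genes was not counted, so this high place cannot be called particular to fast genes. Without that WT pool the median of the fast class was 0.03 and 10 of 16 estimates were above 0, so the excess of estimates below 0 rests on 1 library. The lowest estimate of the class was that of *tnni2a.3*, a low-level troponin I gene with 5.83, 2.78 and 11.2 CPM in mutants and 9.74, 9.14 and 10.7 CPM in WT pools. Here the mutant pool of clutch 3 was the lowest and that of clutch 4 the highest, and the log2 fold change of -0.57 (SE 0.41) had an unadjusted edgeR p of 0.199, or 0.032 with the clutch as a block (adjusted p = 0.528). Left-out libraries moved that estimate between -1.19 (without the mutant pool of clutch 4) and -0.20 (without that of clutch 3).

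Slow muscle was represented by 9 members. Their median log2 fold change was -0.08, 6 estimates were below 0 and 0 passed an unadjusted p of 0.05. The troponin C gene *tnnc1b*, used by slow fibres, had 193, 191 and 194 CPM in the mutant pools and 201, 219 and 232 CPM in the WT pools. All mutant values lay below all WT values, but by little, and the log2 fold change of -0.17 (SE 0.09, interval -0.38 to 0.04) had an unadjusted edgeR p of 0.0970. The light chain gene *myl10* had 518, 505 and 535 CPM in mutants and 419, 447 and 555 CPM in WT pools, where the 2 lowest and the highest value were WT pools. Its log2 fold change was 0.13 (SE 0.12, interval -0.14 to 0.41), or 0.05 without the WT pool of clutch 2 and 0.26 without that of clutch 4. Its neighbour in level, *myl13*, differed by -0.05 (SE 0.10), and the slow-tonic heavy chain gene *myh7ba* by -0.10 (SE 0.23).

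Among troponin I genes placed in the slow class *tnni4b.2* had the highest level. It had 139, 133 and 151 CPM in mutants and 137, 149 and 193 CPM in WT pools. Only the WT pool of clutch 4 stood above the rest, and the log2 fold change of -0.18 (SE 0.14) became -0.02 without that pool and -0.28 without the WT pool of clutch 2. A second gene of this kind, *tnni1d*, differed by -0.08 (SE 0.19). Without the WT pool of clutch 4 the median of the slow class was 0.00, and 5 of 9 estimates were above 0. The main slow heavy chain genes have names outside the rule. Of these *smyhc1*, the heavy chain of embryonic slow fibres, had 1258, 1216 and 1148 CPM in mutants and 1139, 1074 and 1121 CPM in WT pools, and the groups did not overlap. Its log2 fold change was 0.12 (SE 0.09) with an unadjusted edgeR p of 0.217, and those of *smyhc2* and *smyhc3* were 0.09 (SE 0.17) and 0.03 (SE 0.16).

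Actins and tropomyosins shared by several muscle types had estimates close to 0, with all 6 intervals within 0.5 log2 units of it. The actin gene *actc1b*, named for cardiac actin but abundant in zebrafish skeletal muscle, had 19118, 17068 and 16651 CPM in mutants and 19364, 17176 and 18167 CPM in WT pools. The pools of a clutch lay close together, and the log2 fold change was -0.05 (SE 0.10, interval -0.29 to 0.19). The skeletal actin genes *acta1b* and *acta1a* differed by -0.10 (SE 0.12) and 0.00 (SE 0.16). In both, the WT pool of clutch 4 was the lowest of the 6 libraries, the opposite end from its place in most fast genes. Tropomyosin genes *tpm3*, *tpm2* and *tpm1* had log2 fold changes of 0.00 (SE 0.09), 0.02 (SE 0.11) and 0.07 (SE 0.13).

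In the cardiac class 1 library stood apart for some of the genes. All 14 of its estimates were below 0, with a median of -0.09, and 0 had an unadjusted edgeR p under 0.05. The regulatory light chain gene of heart muscle, *myl7*, had 13.3, 43.8 and 47.1 CPM in the mutant pools of clutches 2, 3 and 4 and 41.6, 44.0 and 49.3 CPM in the WT pools. The mutant pool of clutch 2 was far below the other 5, which lay close together. Its log2 fold change of -0.37 (SE 0.39, interval -1.25 to 0.51) became 0.02 (SE 0.12) without that pool.

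Other genes of heart muscle had the same low value. Cardiac troponin T, from *tnnt2a*, the gene mutated in the zebrafish line silent heart, stood at 10.5, 19.4 and 19.7 CPM in mutants and 19.6, 20.7 and 23.6 CPM in WT pools. Cardiac troponin C, from *tnnc1a*, had 2.42, 8.37 and 10.3 CPM and 7.18, 9.32 and 9.02 CPM. A ventricular heavy chain gene, *myh7l*, had 9.64, 39.2 and 39.3 CPM and 35.7, 31.3 and 37.2 CPM. In these 3 genes the mutant pool of clutch 2 held 51.1%, 27.3% and 26.4% of the mean CPM of the other 5 pools, and their mutant pools of clutches 3 and 4 lay within or next to the WT range.

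The atrial heavy chain gene *myh6* had 2.49, 3.21 and 8.03 CPM in mutants and 9.63, 6.47 and 5.56 CPM in WT pools. Here the mutant pools of clutches 2 and 3 were both below every WT pool and that of clutch 4 lay within their range. Its log2 fold change of -0.65 (SE 0.42) was the lowest of all members, with an unadjusted edgeR p of 0.158. It was -1.34 without the mutant pool of clutch 4 (adjusted p = 0.562) and -0.36 without that of clutch 2. With DESeq2, length offsets and the block it was -0.81 (unadjusted p = 0.0360, adjusted p = 0.641).

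In all, 6 of 14 cardiac genes had their lowest CPM in the mutant pool of clutch 2, as had 19.8% of all genes tested. In these 6 the median log2 ratio was -1.61 in clutch 2, -0.06 in clutch 3 and 0.01 in clutch 4. Of the 6, the tropomyosin gene *tpm4a* was lowest by only a small margin. It had 146.7 CPM in that pool, against 147.3 to 189.6 CPM in the other pools. The 6 were picked by their low value in clutch 2, so a ratio below 0 there was fixed by the choice and only describes them. The other 8 had a median of -0.14 in clutch 2. Among them were the actin gene *actc1a*, the heavy chain gene *myh7* and the troponin T genes *tnnt2d* and *tnnt2e*, whose class is uncertain. The troponin gene *tnnt2d*, for instance, had 277, 264 and 277 CPM in mutants and 239, 278 and 318 CPM in WT pools, with the mutant pools inside the WT range. Without the mutant pool of clutch 2 the class had a median of -0.05, and 9 of 14 estimates were below 0. With the clutch as a block *tnnt2a* had a log2 fold change of -0.41 and an unadjusted p of 0.035 (edgeR, adjusted p = 0.539), and without the mutant pool of clutch 2 it differed by -0.12 (SE 0.13).

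Most cardiomyocyte markers were lowest in the same library. Of 11 markers 9 were lowest in the mutant pool of clutch 2, as were 19.8% of all genes tested. Of the 11, 3 are members already counted above (*myl7*, *tnnt2a* and *myh6*) and are not separate evidence. The summed level of the 11 was 73.6 TPM there, 138 and 174 TPM in the other mutant pools, and 139 to 166 TPM in the WT pools. The natriuretic peptide gene *nppa*, made by cardiomyocytes, had 4.32, 15.6 and 19.2 CPM in mutants and 13.8, 16.8 and 19.9 CPM in WT pools, and the cardiac essential light chain gene *cmlc1* had 6.89, 16.0 and 18.7 and 16.8, 15.7 and 20.1 CPM. The factors *hand2* and *gata4* were not lowest there. That pool had 39.7 CPM of *hand2*, against 35.4 to 49.9 CPM in the other pools. Of *gata4* it had 4.76 CPM, against 1.99 to 5.38 CPM. The factor *nkx2.5*, at 1.85, 2.43 and 2.15 CPM in mutants and 1.90, 2.41 and 1.86 CPM in WT pools, was lowest by only a small margin. How much heart each cut mid-section kept was not recorded in the labels, and its part in these values was not tested.

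**Figure D4:**
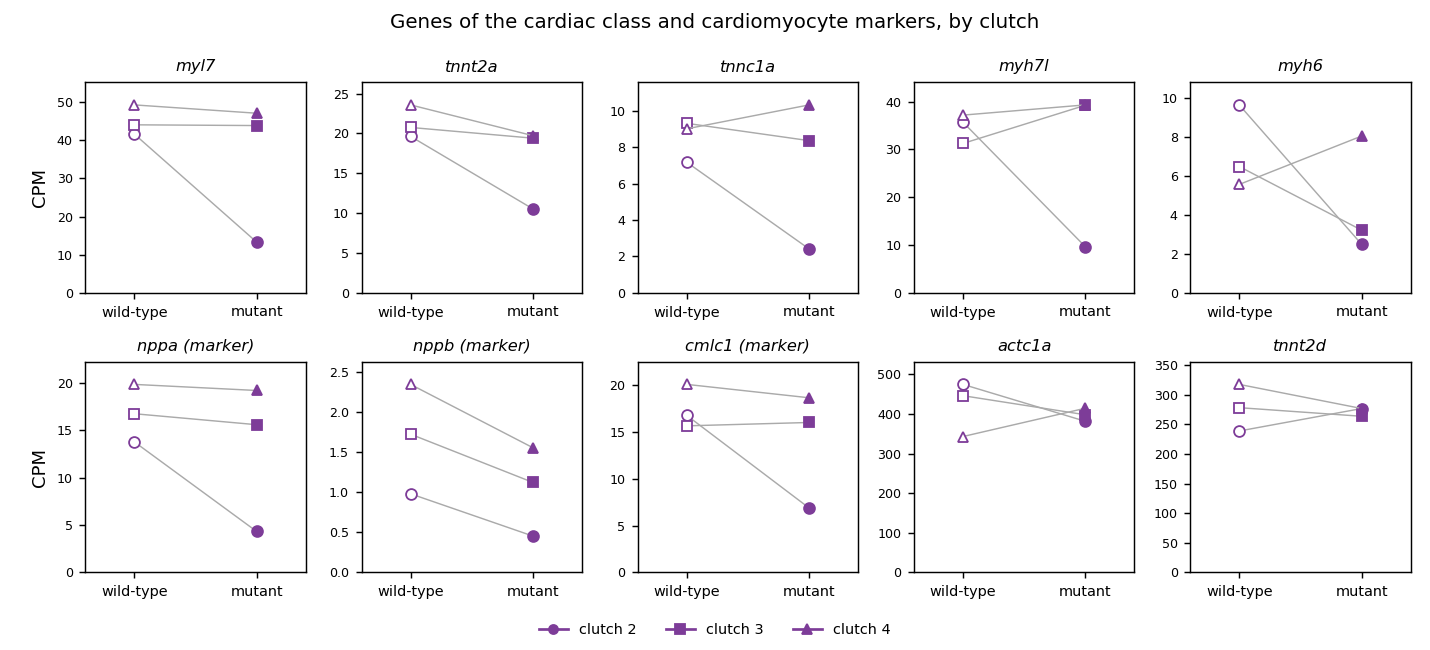
CPM of 7 genes of the cardiac class and of 3 cardiomyocyte markers in WT pools (open) and mutant pools (filled), with lines joining the pools of a clutch. In *myl7*, *tnnt2a*, *tnnc1a*, *myh7l*, *nppa* and *cmlc1* the mutant pool of clutch 2 lies below the other 5 pools, whereas *actc1a* and *tnnt2d* show no such drop.

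The smooth muscle and non-muscle class held the only member with an unadjusted p under 0.05 in edgeR without the block. The heavy chain of non-muscle myosin II, *myh9a*, had 128, 172 and 129 CPM in mutants and 177, 195 and 172 CPM in WT pools. It was lower in the mutant pool of every clutch, though the mutant pool of clutch 3 and the WT pool of clutch 4 were almost equal. The log2 fold change was -0.34 (SE 0.13, interval -0.65 to -0.04), with an unadjusted edgeR p of 0.0327 and an adjusted p of 0.917. Under the clutch block the edgeR estimate was -0.36 (unadjusted p = 0.0080, adjusted p = 0.301). With DESeq2, length offsets and the block it was -0.35 (unadjusted p = 0.0034, adjusted p = 0.147). In edgeR without the block, left-out libraries moved the estimate of *myh9a* between -0.50 (without the mutant pool of clutch 3) and -0.27 (without that of clutch 2). Its unadjusted p was above 0.05 without the mutant pool of clutch 2 or 4 or the WT pool of clutch 2 or 3.

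Epidermal cells also express non-muscle myosin. Of 10 epidermis markers 9 had estimates below 0 (median -0.25 on the log2 scale), where 11791 of all 22762 genes did. The summed level of the 10 was 8711 to 9659 TPM in mutants and 9756 to 12102 TPM in WT pools. At an unadjusted edgeR p under 0.05, 2 of 10 were lower (background 1.99%), or 6 of 10 with the clutch as a block (background 3.05%), and 0 had an adjusted p under 0.05 in either fit. The 2 were the keratin gene *krt4* at -0.32 (SE 0.11, adjusted p = 0.868) and the claudin gene *cldni* at -0.32 (SE 0.12, adjusted p = 0.893). Their part in the value of *myh9a* was not tested.

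The 3 highest estimates among the members also lay in the smooth muscle and non-muscle class. The smooth muscle heavy chain gene *myh11a* had 144, 94.6 and 125 CPM in mutants and 132, 93.7 and 74.4 CPM in WT pools, with only the clutch 4 pools far apart. The fitted log2 fold change was 0.27 (SE 0.22), and left-out libraries moved it between 0.10 (without the WT pool of clutch 4) and 0.53 (without that of clutch 2), with 0.13 and 0.42 without the mutant pools of clutches 2 and 3. The smooth muscle regulatory light chain gene *myl9a* had 72.9, 54.1 and 60.8 CPM in mutants and 56.7, 53.1 and 50.7 CPM in WT pools, which overlapped, and a log2 fold change of 0.23 (SE 0.12) that lay between 0.10 (without the mutant pool of clutch 2) and 0.32 (without that of clutch 3). The cytoplasmic tropomyosin gene *tpm4b* had 43.1, 43.1 and 53.2 CPM in mutants and 42.0, 39.9 and 38.2 CPM in WT pools. These did not overlap, but the mutant pools of clutches 2 and 3 lay just above the WT range, and the log2 fold change was 0.22 (SE 0.11, interval -0.04 to 0.47). It was 0.11 without the mutant pool of clutch 4. With DESeq2 and transcript length offsets it was 0.35, or 0.37 with the block (unadjusted p = 0.0298, adjusted p = 0.579). Summed markers of smooth muscle, with *myh11a* among them, ran from 264 to 373 TPM in mutants and from 262 to 389 TPM in WT pools. The light chain genes *myl12.1* and *myl6* of non-muscle myosin differed by -0.08 (SE 0.09) and 0.04 (SE 0.11).

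In the edgeR fit with genotype and clutch, a test chosen after the data were seen, 9 of 54 members had an unadjusted p under 0.05 for the clutch terms (background 12.2%) and 0 an adjusted p under 0.05 (background 0.536%). The median coefficient of variation of CPM between the 3 pools of a genotype was 6.78% in mutants and 11.3% in WT pools for the fast class, and 12.5% and 13.1% for the cardiac class. Over all genes tested it was 13.0% and 15.4%. The highest value of a member, 65.8%, was in the mutant pools of the cardiac class.

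Many members sit beside close copies, and reads of such copies can be shared out unevenly by the estimation. All 54 symbols were found in the gene table of GRCz12tu, another assembly than that of the files. There *tnni2a.1* to *tnni2a.4* follow one another without a gene between, with *tnnt3a* 2 protein-coding genes further on. Within this array *tnni2a.4* exceeded *tnni2a.1* 110-fold and *tnni2a.2* 2287-fold in mean TPM. The heavy chain genes *myhz1.1*, *myhz1.2*, *myhz1.3* and *myha*, with *myhc4* and *myhz2*, form another such row, in which *myhz1.1* exceeded *myhz1.2* by 2.22-fold and *myhz2* by 22.7-fold. Of the members, *myl10* and *tpm2* are on the chromosome of *dgat2*. Only 12 protein-coding genes lie between *dgat2* and *myl10*, and 492 between *dgat2* and *tpm2*, and the values of both are given above.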

How the data were processed

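Embryos were genotyped and pooled by the authors as mid-sections, and libraries were made from poly(A)-selected RNA. The authors trimmed and filtered the reads, mapped them to GRCz11 with STAR 2.7.9a and quantified them with Salmon 1.10.1. The deposited values are estimated counts of reads for each gene, without scaling, and the TPM that the authors derived with transcript length and depth taken into account.

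Estimated counts were rounded to whole numbers, since 49 of the 54 members held fractions. Totals of 45958694 to 59166585 counts keep counting error small for abundant genes, so the spread between 3 pools per genotype sets the precision. Samples were grouped by genotype as labelled. The main test was edgeR 4.0.16 in R 4.3.3 (TMM, filterByExpr, glmQLFit and glmQLFTest, genotype only), with Benjamini-Hochberg adjustment over 22762 genes. A call needed an adjusted p under 0.05. In this main test, adding an absolute log2 fold change over 1.5 left the same counts. That threshold was not added to the calls of the other fits. Standard errors came from the F statistic, and intervals are 95% intervals.

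Pairing by clutch comes from the labels, where clutches 2, 3 and 4 name a pool of each genotype. Pools of the same clutch deviated together from their genotype means (correlations across genes of 0.351, 0.309 and 0.185), and pools of different clutches had correlations from -0.299 to 0.0311. The block is therefore given beside a result where it moved a count, and beside some single estimates. Other estimates, standard errors and intervals come from the fit without it.

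Results were recomputed with DESeq2 1.42.0 (rounded counts, also with length offsets from estimated count over TPM), with the clutch block in both tools, DESeq2 size factors in edgeR, no filter on low counts, limma 3.58.1 on log2 of the deposited TPM plus a pseudocount of 1 or of 0.1 (genes reaching 1 TPM in 3 or more libraries), and each library left out in turn. The fits were run on simulated counts with changes larger than the estimate of any member and without a clutch effect. Their power for differences as small as those of the members was therefore not tested.

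Named members were the 3 highest in TPM of each class and family, those with an unadjusted p under 0.05 or groups without overlap, and the 3 largest rises and falls. Other genes named (the slow heavy chains, cardiac *tnnc1a* and the troponin I copies, markers without such a p, and rows that the name rule misses) were chosen after their values were seen. Members and lists were chosen with earlier results of these data known. No genome of the build GRCz11 was used here, so no coordinates are given, and the gene table of GRCz12tu served only for names and gene order.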

Additional observations from a re-analysis of the deposited data

How the results depend on the processing

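Under all alternatives 0 members were called at an adjusted p under 0.05. Of 558 alternative values of the 40 named members, 535 moved by less than 1 standard error and 23 by more, and 0 became calls. The count of members higher at an unadjusted p was 1 with DESeq2, length offsets and the replicate block, and 0 to 1 with a library left out. The count lower was 2 with DESeq2 and length offsets, 3 with edgeR and the replicate block, 4 with DESeq2, length offsets and the block, and 0 to 2 with a library left out. For the members the block changed no other call, and its effect on the other genes and lists is given with them. The median log2 fold change of all members was -0.0663 with limma on log2(TPM + 1) and -0.0672 on log2(TPM + 0.1), fits that leave out genes of low TPM, and -0.0665 to -0.0249 with a library left out. That of the slow class ran from -0.115 to 0.0038 with a library left out. The medians of the fast and cardiac classes and the share of TPM moved by less than the spread between clutches. The cause of these shifts was not tested. With 3 pools a genotype, differences smaller than the intervals given were not detectable, and exact permutation tests of 3 against 3 pools cannot give a p under 0.1.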

Other observations

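Rows that the name rule misses hold further genes of these families. There were 13, of which 5 have symbols in capitals and 8 are listed by identifier only and were named from the GRCz12tu table, and they were described apart after the data were seen. With edgeR's quasi-likelihood test 0 of 13 had an adjusted p under 0.05 (background 0.0132%), 0 were higher at an unadjusted p under 0.05 (background 3.21%) and 2 were lower (background 1.99%). DESeq2 with length offsets and the block called 1 of 13, *myh14* (background 1.46%).

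The lower ones were *myh14*, a non-muscle myosin heavy chain gene, and *tnnc2.1*, a copy of fast troponin C next to the abundant *tnnc2.2*. For *myh14* the mutant pools had 30.2, 39.3 and 37.5 CPM and the WT pools 42.8, 47.8 and 52.5 CPM, without overlap and lower in each clutch. Its log2 fold change was -0.42 (SE 0.13, edgeR adjusted p = 0.784, or 0.179 with the clutch as a block), and left-out libraries moved it between -0.49 and -0.31. With DESeq2 and length offsets it was -0.55 (adjusted p = 0.527), and with the block added -0.56 (adjusted p = 0.00347), a call. For *tnnc2.1* the counts were 34, 29 and 46 in mutants and 102, 49 and 42 in WT pools, so few reads carry it. As CPM these were 0.642, 0.552 and 0.745 and 2.17, 0.982 and 0.887, without overlap but with the clutch 4 pools close together. The log2 fold change was -1.05 (SE 0.42, edgeR adjusted p = 0.931) and came to -0.53 without the WT pool of clutch 2. The fast heavy chain gene *myhz1.3* had 3038, 3638 and 2537 CPM in mutants and 3815, 3537 and 4047 CPM in WT pools, overlapping through clutch 3, and a log2 fold change of -0.31 (SE 0.14). That value was -0.45 without the mutant pool of clutch 3 and -0.19 without that of clutch 4, and DESeq2 with length offsets and the block gave -0.31 (unadjusted p = 0.0341, adjusted p = 0.623).

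A copy of the fast heavy chains, *myha*, differed between clutches (edgeR adjusted p = 0.00362 for the clutch terms, where 0.536% of all genes had one under 0.05). It had 116, 98.8 and 28.0 CPM in mutants and 135, 109 and 31.7 CPM in WT pools, so that both pools of clutch 4 were far below the other 4. Within each clutch the mutant pool was lower (-0.22, -0.15 and -0.18 on the log2 scale), and the blocked estimate was -0.18 (SE 0.09, edgeR unadjusted p = 0.0814, adjusted p = 0.687). In *myhz1.3*, which lies next to it in the gene order, the 2 pools of clutch 4 were the lowest and the highest of the 6.

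Genes that work with the sarcomere, and markers of cell types, were looked at as lists. Each list had 0 calls at an adjusted edgeR p under 0.05, without or with the clutch as a block. Their counts at an unadjusted p stand beside 3.21% of all genes higher and 1.99% lower, or 5.14% and 3.05% with the block. Among 26 Z-disc, M-band and filament genes 1 was lower at an unadjusted p, the fast myosin-binding protein C gene *mybpc2b* with 138, 127 and 135 CPM in mutants and 187, 150.4 and 151 CPM in WT pools (log2 fold change -0.29, SE 0.11, adjusted p = 0.929). All its mutant values lay below all WT values. With the block 1 gene of this list was also higher, *desmb* (0.37). Among 5 genes listed for myosin folding, the methyltransferase gene *smyd1b* was lower (-0.26, SE 0.10, edgeR adjusted p = 0.893) and the chaperone gene *hsp90aa1.2* higher (0.51, SE 0.19, edgeR adjusted p = 0.890). The other 4 had estimates below 0. Among them the related chaperone gene *hsp90aa1.1* ran from -0.36 to 0.03 with a library left out. Whether *hsp90aa1.2* acts on myosin was not tested. In zebrafish *smyd1b* is needed for thick filament assembly in muscle.

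Of 20 genes of calcium handling 19 had estimates below 0, as had 11791 of all 22762 genes, and the median was -0.08. At an unadjusted p under 0.05, 0 were lower, or 2 with the block, the calsequestrin gene *casq2* (-0.23) and the calcium channel gene *cacna1sa* (-0.28). Of 15 creatine kinase and glycolytic genes 1 was lower at an unadjusted p, *ckmt2a* (-0.54, SE 0.24, edgeR adjusted p = 0.951), and of 15 myogenic regulators 0 were higher or lower. The YSL and liver markers had 9 of 13 estimates above 0 and 4 below, among them *tfa* (-0.35) and *apoa2* (-0.21), with a median of 0.10. Their median log2 ratio was -0.06 in clutch 2, 0.04 in clutch 3 and 0.45 in clutch 4. Their summed level was 15883, 17448 and 14776 TPM in mutants and 20883, 20445 and 10374 TPM in WT pools, lower in the mutant pool in clutches 2 and 3 and higher in clutch 4. The lipoprotein assembly gene *mttp* (0.59, SE 0.17, edgeR adjusted p = 0.702) and the fatty acid binding gene *fabp1b.1* (0.79, SE 0.23, edgeR adjusted p = 0.702) were higher at an unadjusted p, 2 of 13, with 0 lower. With the block 4 of 13 were higher, *ttr* (0.78) and *apoeb* (0.41) being the others. Of 11 cardiomyocyte markers the limb and heart factor gene *tbx5a* was lower (-0.63, SE 0.27, edgeR adjusted p = 0.951), and with the block 2 others were lower in its place, *tnnt2a* and *nppb*. All 9 neural markers had estimates below 0, where 11791 of all 22762 genes did. Their median was -0.22, with -0.07, 0.12 and -0.58 in clutches 2, 3 and 4. Of 8 blood markers 7 were above 0 (median 0.14, with -0.01, 0.41 and -0.08 in these clutches). Of 4 smooth muscle markers 3 were above 0 (median 0.19, with 0.09, 0.03 and 0.60). Among these markers *myh11a* is a member already described and is not separate evidence. Of the neural, blood and smooth muscle markers 0 passed that p. With the block 1 neural marker was lower (*tubb5*, -0.38) and 1 smooth muscle marker higher (*acta2*, 0.32).

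DESeq2 with transcript length offsets and the block called 6 genes of these lists at an adjusted p under 0.05 (background 1.46%), and 0 without the block (background 0.684%). They were *hsp90aa1.2* (adjusted p = 0.0271) of the 5 genes listed for myosin folding and *ckmt2a* (0.0393) of the 15 creatine kinase and glycolytic genes. The others were all among the 13 YSL and liver markers, *mttp* (0.00184), *ttr* (0.00289), *apoeb* (0.0337) and *fabp1b.1* (2.46e-05), so the calls lay mainly in that list. The threshold on fold change was not applied to these 6 calls. The genes of all lists together were not counted, so the 6 are not given as a share.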
